A study of Mus musculus with 12 samples.

Results

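The ligands of the tumour necrosis factor (TNF) superfamily are membrane-bound or shed trimeric proteins through which immune cells act on neighbouring cells. The 10 ligand genes described here are *Tnf*, *Lta*, *Ltb*, *Tnfsf4*, *Tnfsf8*, *Tnfsf10*, *Tnfsf11*, *Tnfsf14*, *Fasl* and *Cd40lg*. They were taken by name from the 24346 gene symbols in the deposited files. Most of these ligands signal through receptors that recruit TRAF adapters and activate NF-kB, while TNF, TRAIL and Fas ligand can also engage receptors with death domains. In the lung, group 2 innate lymphoid cells (ILC2s) use membrane ligands of this family, such as OX40L, to act on T cells, and soluble members act on epithelium, stroma and other leukocytes.

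The study asked what loss of *Sema6d*, which encodes a transmembrane semaphorin, changes in lung ILC2s at rest and under IL-33, an alarmin that activates these cells. ILC2s were sorted from mouse lung as lineage-negative, Thy1.2-positive and ST2-positive leukocytes, and their RNA was sequenced in 12 libraries. The 4 groups of 3 libraries were wild-type (WT) mice given PBS, *Sema6d*-deficient mice (6DKO) given PBS, WT mice given IL-33 and 6DKO mice given IL-33. All mice were 7 to 12 weeks old, the strain was C57BL/6 in the labels and C57BL/6J in the paper, and PBS or IL-33 was given into the nose for 3 days, with the lungs taken 24 h after the last dose. The labels give 50 ng of IL-33, whereas the methods of the paper name a larger daily dose, and the sources used give no account of which part of *Sema6d* is deleted.

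Levels are in FPKM, the count of sequenced fragments divided by transcript length and by the mapped fragments of the library, so that genes and libraries can be set side by side. A difference is a log2 fold change of FPKM + 1 with its standard error (SE) from limma, a linear model fitted to the 11448 genes tested in all 12 libraries. A gene is called, or said to have risen or fallen, when its p-value, adjusted over these genes by the Benjamini-Hochberg method, is under 0.05. FPKM carry no read totals, but depth relative to WT IL-33 3 was estimated from the most common ratio between 2 libraries among genes under 1 FPKM in both, which often rest on the same few reads. It was 0.739 to 0.998 in the PBS libraries and 0.968 to 1.39 in the IL-33 libraries, 1.88-fold from the shallowest to the deepest. The number of genes above 1 FPKM was 7696 to 9287 per PBS library and 9917 to 10081 per IL-33 library. Pearson's r between replicates, over genes on the log2 scale, was 0.761 to 0.818 under PBS and 0.934 to 0.950 under IL-33. Genes that every cell uses were also listed at 0 in places: *Tbp* and *Gusb* were at 0 in 6DKO PBS 1 and between 7.63 and 44.8 FPKM in the other 11 libraries. Where a ligand is written below as listed at 0, this is what the file holds.

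*Sema6d* itself, the gene deleted in 6DKO, measured 27.5, 46.1 and 37.5 FPKM in WT PBS and 29.0, 22.9 and 19.8 FPKM in 6DKO PBS. With IL-33, WT mice had 19.7, 35.5 and 28.7 FPKM and 6DKO mice 15.4, 13.6 and 13.8 FPKM of it. It was thus measured in all 6 knockout libraries, lower than in every WT library under IL-33 and with overlap under PBS. The difference of 6DKO from WT was −0.89 (SE 0.30, adjusted p = 1) under IL-33 and −0.60 (SE 0.30, adjusted p = 0.444) under PBS.

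The ILC2 label was checked against 13 marker genes, all of which were above 0 in all 12 libraries. *Gata3*, the transcription factor of the lineage, was between 295 and 690 FPKM, and *Il1rl1*, which encodes the IL-33 receptor ST2, was between 117 and 269 FPKM. Of 9 T cell markers found in the files, *Cd4* was at 0 in all 12 libraries, while *Cd3g*, at 190 to 480 FPKM, and *Lat*, at 91.6 to 234 FPKM, had the highest means. Library 6DKO PBS 2 stood apart by markers that natural killer (NK) cells share with ILC1s. All 7 were above 0 there and summed to 768 FPKM, of which *Gzma* made up 653, *Ncr1* 58.9 and *Prf1* 36.3 FPKM, whereas the sums in the other 11 libraries lay between 0 and 40.2 FPKM. In a bulk sample, a smaller number of cells of a type and less RNA per cell cannot be told apart.

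Ligand transcripts differed widely in level. In WT mice given PBS, the order of the group means was *Ltb*, *Tnfsf11*, *Tnf*, *Tnfsf14*, *Lta*, *Tnfsf10*, *Tnfsf8*, *Fasl*, *Tnfsf4* and *Cd40lg*. In that order, the ranges of *Tnfsf11* and *Tnf* overlapped, as did those of *Lta* and *Tnfsf10*, of *Tnfsf10* and *Tnfsf8*, and of the last 3 genes. Under IL-33 in WT, the order was *Ltb*, *Tnfsf11*, *Tnfsf8*, *Lta*, *Tnf*, *Tnfsf14*, *Tnfsf4*, *Tnfsf10*, *Cd40lg* and *Fasl*. The neighbours without overlap there were *Ltb* and *Tnfsf11*, *Tnf* and *Tnfsf14*, *Tnfsf4* and *Tnfsf10*, and *Tnfsf10* and *Cd40lg*. In 6DKO mice given PBS the order began with *Ltb*, *Tnf*, *Tnfsf11*, *Tnfsf14* and *Lta*, went on with *Fasl*, *Tnfsf4*, *Tnfsf8* and *Tnfsf10*, and ended with *Cd40lg*. Neighbours did not overlap there only between *Ltb* and *Tnf*, between *Tnfsf11* and *Tnfsf14*, and between *Tnfsf10* and *Cd40lg*. In 6DKO mice given IL-33 the order was *Ltb*, *Tnfsf11*, *Tnfsf8*, *Tnf*, *Lta*, *Tnfsf4*, *Tnfsf14*, *Tnfsf10*, *Fasl* and *Cd40lg*. The pairs that overlapped there were *Tnfsf11* with *Tnfsf8*, *Tnf* with *Lta*, *Tnfsf4* with *Tnfsf14*, and *Fasl* with *Cd40lg*. *Ltb* alone made up 55.6% to 71.2% of the summed FPKM of the 10 ligands in each library.

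**Figure D1:**
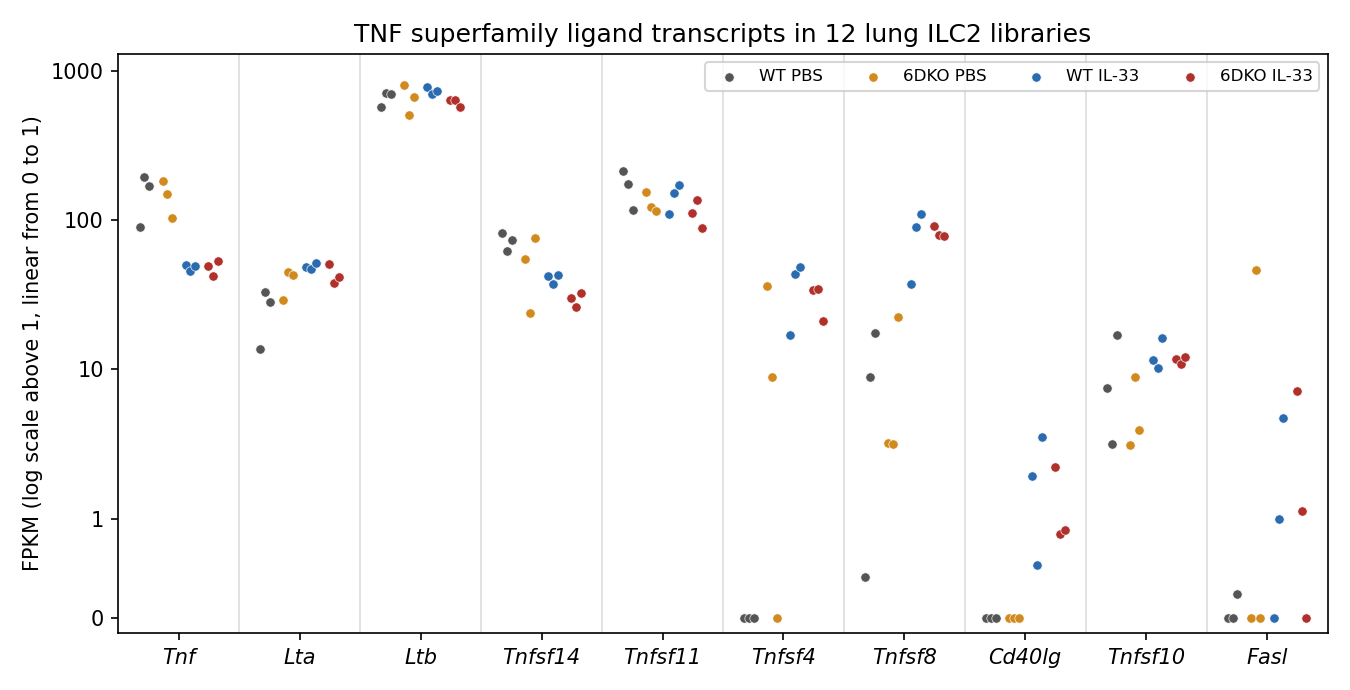
FPKM of the 10 ligand genes (x axis) in each of the 12 libraries (1 point each, coloured by group; y axis logarithmic above 1 FPKM and linear from 0 to 1). *Tnf* spans 90.4 to 194 FPKM over the 6 PBS libraries and 42.1 to 53.4 FPKM over the 6 with IL-33, and *Tnfsf8* spans 0.409 to 22.5 and 37.6 to 110 FPKM.

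In WT mice, IL-33 against PBS gave calls for 2 of the 10 ligands and for 4.32% of all genes tested. Of these 2, *Tnfsf4* rose, with 2.69% of all genes called higher, and *Tnf* fell, with 1.63% called lower. In 6DKO mice, 1 of 10 was called, *Tnf*, against 3.02% of all genes, of which 1.86% were higher and 1.16% lower. Averaged over the genotypes, 4 of 10 were called against 9.04% of all genes. *Tnfsf8*, *Tnfsf4* and *Cd40lg* were the 3 higher ones, with 5.89% of all genes called higher, and *Tnf* the lower one, with 3.15% called lower. The 3 libraries of PBS and of IL-33 did not overlap for 6 ligands in WT, against 25% of all genes, and for 4 ligands in 6DKO, against 22.6%. The median log2 fold change was 0.84 over the 10 ligands and 0.16 over all genes in WT, and 0.052 and 0.14 in 6DKO. Averaged over the genotypes it was 0.45 and 0.16. The averaged values use the same libraries as the values within each genotype.

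The tests of genotype called no ligand. Under IL-33, limma called 0 of 10 ligands between 6DKO and WT, and 1 gene of all tested (0.00874%), with 0 ligands and 224 genes at an unadjusted p under 0.05. Under PBS it called 0 of 10 ligands and 0.611% of all genes, with 1 ligand, *Tnfsf4*, and 1492 genes at an unadjusted p under 0.05. The interaction, which tests whether the response to IL-33 differed between the genotypes, called 0 of 10 ligands and 3 genes (0.0262%), with 0 ligands and 651 genes at an unadjusted p under 0.05. Gene counts over the alternatives ran from 0 to 59 under IL-33, from 1 to 206 under PBS and from 0 to 30 in the interaction. All contrasts share 1 spread per gene, although replicates were less alike under PBS (r 0.761 to 0.818) than under IL-33 (0.934 to 0.950). The SE under IL-33 thus also holds the scatter of the PBS libraries, and a missing call there does not show equal levels. With array weights 59 genes were called under IL-33 and 1 under PBS, and with only the groups compared 0 and 1. Groups of 3 did not overlap between the genotypes for 2 ligands under IL-33, against 14.2% of all genes, and for 0 under PBS, against 8.59%. The median over the ligands was −0.18 under IL-33, −0.010 under PBS and −0.13 for the interaction, and that over all genes was 0.0049, 0.0025 and −0.021. The genotype contrasts share their libraries with the contrasts of treatment.

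**Figure D2:**
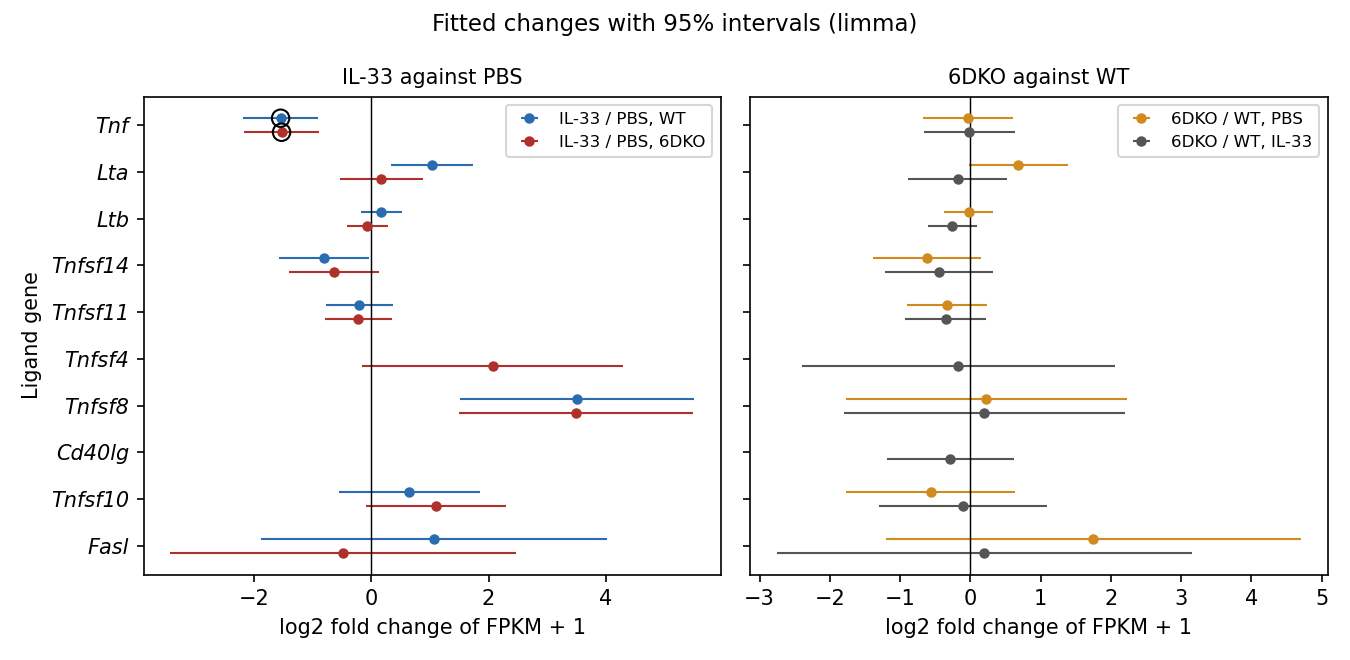
Log2 fold change of FPKM + 1 (x axis) of each ligand gene (y axis) with its 95% interval, for IL-33 against PBS in WT and 6DKO (left) and for 6DKO against WT under PBS and IL-33 (right), with a black ring where the adjusted p is under 0.05. *Tnf* lies at −1.55 in WT and −1.53 in 6DKO, and no point is drawn for a contrast with a group listed at 0 in all 3 libraries.

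*Tnf*, *Lta* and *Ltb* encode the ligands of the TNF and lymphotoxin receptors and lie side by side on chromosome 17. Their 3 genes span 10913 bases of GRCm38, chr17:35194439-35205351, with *Tnf* and *Lta* on the minus strand and *Ltb* on the plus strand. TNF is made as a membrane protein, is cut from the surface, and binds TNFR1 and TNFR2. The transcript of *Tnf* was at 90.4, 194 and 169 FPKM in WT PBS, at 183, 149 and 103 FPKM in 6DKO PBS, at 50.0, 46.0 and 49.5 FPKM in WT IL-33 and at 49.1, 42.1 and 53.4 FPKM in 6DKO IL-33. Each of the 6 IL-33 libraries was below each of the 6 PBS libraries, and the genotypes overlapped under both treatments. The group means were 151 ± 54.1 and 145 ± 40.1 FPKM (SD, n = 3) in WT and 6DKO under PBS, and 48.5 ± 2.17 and 48.2 ± 5.67 FPKM (SD, n = 3) under IL-33. *Tnf* fell with IL-33 in WT (log2 fold change −1.55, SE 0.29, adjusted p = 0.0124) and in 6DKO (−1.53, SE 0.29, adjusted p = 0.0178). The interaction was 0.016 (SE 0.41, adjusted p = 0.999). Averaged over the genotypes, the change was −1.54 (SE 0.21, adjusted p = 0.000906), and the mean of the 6 PBS libraries was 3.06-fold that of the 6 IL-33 libraries. The genotype difference was −0.030 under PBS and −0.014 under IL-33 (SE 0.29 for both, adjusted p = 1 for both), and the sign under IL-33 turned with quantile normalization (0.00097). The call in WT ended without any 1 of the 3 WT IL-33 libraries (adjusted p = 0.0504 to 0.0535) and with a fit of only these groups (0.0529), in a range of 0.00420 to 0.0535 over 21 alternatives. The call in 6DKO ended without any 1 of the 3 6DKO IL-33 libraries (0.0539 to 0.0775), in a range of 0.00620 to 0.0775. The averaged change was called in all 20 alternatives that give an average (adjusted p = 0.000262 to 0.00420).

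Lymphotoxin-alpha, the product of *Lta*, binds the TNF receptors as a soluble trimer and, joined to lymphotoxin-beta, the lymphotoxin-beta receptor at the cell surface. *Lta* was at 13.7, 32.9 and 28.4 FPKM in WT PBS, at 29.0, 45.01 and 42.6 FPKM in 6DKO PBS, at 48.3, 47.0 and 51.8 FPKM in WT IL-33 and at 50.7, 37.9 and 41.8 FPKM in 6DKO IL-33. All 3 WT IL-33 libraries were above all 3 WT PBS libraries, while the treatments overlapped in 6DKO and the genotypes overlapped under both treatments. The log2 fold change with IL-33 was 1.03 (SE 0.32, adjusted p = 0.108) in WT and 0.17 (SE 0.32, adjusted p = 0.853) in 6DKO, and neither was called. Their difference was not called (interaction −0.86, SE 0.45, adjusted p = 0.886). The ratio of *Tnf* to *Lta* within a library was 6.62, 5.90 and 5.97 in WT PBS, 6.29, 3.30 and 2.41 in 6DKO PBS, 1.03, 0.978 and 0.955 in WT IL-33, and 0.968, 1.11 and 1.28 in 6DKO IL-33. Under PBS, *Tnf* exceeded its neighbour in each of the 6 libraries, and under IL-33 the levels were close in all 6.

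Lymphotoxin-beta anchors lymphotoxin-alpha to the membrane. *Ltb* was at 574, 713 and 696 FPKM in WT PBS, at 801, 509 and 668 FPKM in 6DKO PBS, at 787, 704 and 734 FPKM in WT IL-33 and at 643, 642 and 574 FPKM in 6DKO IL-33. The 3 6DKO IL-33 libraries were below the 3 WT IL-33 libraries, and the other pairs of groups that the contrasts use overlapped. The genotype difference under IL-33 was −0.26 (SE 0.16, adjusted p = 1). The change with IL-33 was 0.17 in WT (SE 0.16, adjusted p = 0.643) and −0.067 in 6DKO (SE 0.16, adjusted p = 0.892).

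The sequences before the starts of these 3 neighbours are shown because the genes lie within a single cluster while *Tnf* fell and *Lta* and *Ltb* were not called. They are from RefSeq (GRCm38.p6). The set of sequences used here held 8 of the 10 ligands, without *Tnfsf4* and *Cd40lg*. *Ltb* is at chr17:35194257-35194438 on the plus strand, without the 68 bases nearest the start, which lie within the annotated span of the gene. *Tnf* at chr17:35202008-35202257 and *Lta* at chr17:35205352-35205601 are on the minus strand. All are written from 5′ to 3′ in the direction of transcription, with capitals where the NF-kB-like motif, GGG and CC with any 5 bases between them, matches on either strand.
Ltb: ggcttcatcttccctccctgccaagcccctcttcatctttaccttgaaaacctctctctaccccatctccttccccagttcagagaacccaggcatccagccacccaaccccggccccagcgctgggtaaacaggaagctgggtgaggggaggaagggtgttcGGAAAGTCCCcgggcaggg
Tnf: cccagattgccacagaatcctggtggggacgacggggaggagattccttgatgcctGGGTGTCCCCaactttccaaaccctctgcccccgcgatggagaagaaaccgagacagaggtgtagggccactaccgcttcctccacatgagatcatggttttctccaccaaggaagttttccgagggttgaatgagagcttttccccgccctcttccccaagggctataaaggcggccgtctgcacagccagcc
Lta: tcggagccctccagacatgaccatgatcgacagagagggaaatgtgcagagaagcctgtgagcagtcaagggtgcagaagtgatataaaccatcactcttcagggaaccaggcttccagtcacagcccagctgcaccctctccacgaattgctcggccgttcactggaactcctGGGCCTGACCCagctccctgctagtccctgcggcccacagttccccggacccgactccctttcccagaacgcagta
In the 250 bases before the start, the NF-kB-like motif was found in 6 of the 8 ligand windows and in 45.8% of 32851 windows of all genes. The NFAT-like letters GGAAA were in 8 of 8 windows and 55.6% of all. TTCNNNGAA, STAT-like, was in 2 of 8 windows, those of *Lta* and *Ltb*, against 7.02% of all. TGANTCA, AP-1-like, was in 1 of 8, that of *Tnfsf14*, against 6.75%, and the GATA-like letters AGATAA were in 0 of 8, against 9.99%. Each was searched on both strands, and the letters of different motifs can overlap. These matches describe the letters and show no binding.

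*Tnfsf14* encodes LIGHT, which binds HVEM and the lymphotoxin-beta receptor. It was at 82.2, 61.7 and 73.3 FPKM in WT PBS, at 55.2, 23.9 and 75.5 FPKM in 6DKO PBS, at 42.1, 37.3 and 42.7 FPKM in WT IL-33 and at 30.2, 26.4 and 32.4 FPKM in 6DKO IL-33. All WT IL-33 libraries were below all WT PBS libraries and above all 6DKO IL-33 libraries, whereas the 6DKO PBS libraries overlapped those with IL-33 through 6DKO PBS 2. The log2 fold change with IL-33 was −0.81 in WT (SE 0.35, adjusted p = 0.253), −0.64 in 6DKO (SE 0.35, adjusted p = 0.429) and −0.72 averaged (SE 0.25, adjusted p = 0.09999), and none was called. 6DKO PBS 2, the library that stood apart by NK cell markers, was the lowest of the PBS libraries for *Tnfsf14*. Without it these values were −0.81, −1.10 and −0.96, and each was called (adjusted p = 0.0427, 0.0245 and 0.00322). These were the lowest of ranges that reached 0.493, 0.694 and 0.202 over the alternatives. The WT estimate does not use this library and kept its value, so that its call came only through the shared spread and the adjustment. The genotype difference was −0.45 under IL-33 (SE 0.35, adjusted p = 1) and −0.62 under PBS (SE 0.35, adjusted p = 0.498).

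*Tnfsf11* encodes RANKL, the ligand of RANK, known for driving osteoclasts and lymph node formation. By mean it ranked 2 or 3 of the 10 ligands in each group, with group means of 112 to 169 FPKM. Over the 6 PBS libraries it ranged from 116 to 214 FPKM and over the 6 IL-33 libraries from 89.1 to 171 FPKM, and every pair of groups compared overlapped. Its log2 fold change with IL-33 was −0.21 in WT and −0.23 in 6DKO (SE 0.26, adjusted p = 0.746 and 0.740). The genotype difference was −0.35 under IL-33 and −0.34 under PBS (SE 0.26, adjusted p = 1 and 0.594).

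Among the ligands that costimulate T cells, *Tnfsf4* encodes OX40L, the membrane ligand of OX40. It was listed at 0 in all 3 WT PBS libraries, at 36.1, 8.93 and 0 FPKM in 6DKO PBS, at 16.9, 43.6 and 48.3 FPKM in WT IL-33 and at 34.2, 34.4 and 21.0 FPKM in 6DKO IL-33. It was above 0 in each of the 6 IL-33 libraries and in 2 of the 6 PBS libraries, both of them 6DKO, and 6DKO PBS 1 was within the range of the IL-33 libraries. Of 1085 genes with a mean of 25 to 45 FPKM under IL-33, 1.57% were listed at 0 in all 3 WT PBS libraries. As these genes were picked by their level under IL-33, the share cannot tell an absent transcript from one that was missed. *Tnfsf4* rose with IL-33 in WT (adjusted p = 0.0166, higher in 3 of 3 libraries), and no fold is given against a group at 0. In 6DKO the log2 fold change was 2.07 (SE 1.01, adjusted p = 0.368), and the interaction was not called (adjusted p = 0.868). Averaged over the genotypes it rose (adjusted p = 0.00989). The call in WT ended without WT IL-33 2 (adjusted p = 0.0707) or WT IL-33 3 (0.0779), in a range of 0.00128 to 0.0779 over the alternatives. Between the genotypes under PBS the adjusted p was 0.284, and 0.0150 without 6DKO PBS 3, the library of that group with a 0, in a range of 0.0150 to 0.930. Under IL-33 the genotype difference was −0.17 (SE 1.01, adjusted p = 1).

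*Tnfsf8* encodes CD30L, which binds CD30 on activated lymphocytes. It was at 0.409, 8.92 and 17.6 FPKM in WT PBS, at 3.23, 3.17 and 22.5 FPKM in 6DKO PBS, at 37.6, 90.0 and 110 FPKM in WT IL-33 and at 92.1, 79.1 and 78.4 FPKM in 6DKO IL-33. Every IL-33 library was above every PBS library, with a wide spread among the PBS libraries, and the genotypes overlapped. The mean of the 6 IL-33 libraries was 8.72-fold that of the 6 PBS libraries. Averaged over the genotypes, *Tnfsf8* rose (log2 fold change 3.51, SE 0.64, adjusted p = 0.00592). Within WT the value was 3.52 (SE 0.91, adjusted p = 0.0555) and within 6DKO 3.49 (SE 0.91, adjusted p = 0.0708), neither of which was called, and the interaction was −0.026 (SE 1.29, adjusted p = 1). The values within WT and 6DKO were both called with quantile normalization (adjusted p = 0.0378 and 0.0395). Both were also called with the replicate block (0.0309 and 0.0441) and without 6DKO PBS 3 (0.0371 and 0.0337). The ranges were 0.0281 to 0.198 and 0.0202 to 0.213 over the alternatives. The genotype difference was 0.20 under IL-33 (SE 0.91, adjusted p = 1) and 0.23 under PBS (SE 0.91, adjusted p = 0.963).

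*Cd40lg* encodes CD40L, the ligand by which helper T cells activate B cells and dendritic cells. It was listed at 0 in all 6 PBS libraries, at 1.94, 0.533 and 3.52 FPKM in WT IL-33 and at 2.201, 0.848 and 0.888 FPKM in 6DKO IL-33. The IL-33 libraries were all above 0, at levels low among these ligands, and the genotypes overlapped. Of 1895 genes with a mean of 1 to 3 FPKM under IL-33, 7.60% were likewise at 0 in all 6 PBS libraries. This share, also of genes picked by their level under IL-33, has the same limit as that given for *Tnfsf4*. *Cd40lg* rose when the genotypes were averaged (adjusted p = 0.0171) but was not called in WT (adjusted p = 0.0773) or in 6DKO (0.194). It was called in both genotypes with a pseudocount of 0.1 (0.0148 and 0.0305), and in WT without WT IL-33 2 (0.0342). The interaction was −0.29 (SE 0.58, adjusted p = 0.948). With every PBS library at 0, the interaction equals the genotype difference under IL-33 and tests no separate difference in response. The averaged call ended with quantile normalization (adjusted p = 0.205) and with array weights (0.127), in a range of 0.00150 to 0.205.

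*Tnfsf10* and *Fasl* encode ligands of death receptors. *Tnfsf10*, for TRAIL, ranged from 3.10 to 16.9 FPKM over the 6 PBS libraries and from 10.3 to 16.3 FPKM over the 6 with IL-33. All 3 IL-33 libraries of 6DKO, at 11.7, 10.8 and 12.1 FPKM, were above its PBS libraries, at 3.10, 8.86 and 3.90 FPKM, while WT overlapped. The log2 fold change was 0.65 in WT (SE 0.55, adjusted p = 0.605), 1.10 in 6DKO (SE 0.55, adjusted p = 0.372) and 0.87 averaged (SE 0.39, adjusted p = 0.206), and none was called. *Fasl* had listed values of 0, 0 and 0.246 FPKM in WT PBS, at 0, 46.6 and 0 FPKM in 6DKO PBS, at 0, 0.992 and 4.75 FPKM in WT IL-33 and at 7.15, 1.13 and 0 FPKM in 6DKO IL-33. A single library, 6DKO PBS 2, held 46.6 FPKM, and 6 of the 12 libraries were at 0.

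That library is the one with markers of NK cells and ILC1s. The 7 markers summed to 19.5, 0 and 4.78 FPKM in WT PBS, to 0, 768 and 4.70 FPKM in 6DKO PBS, to 0.375, 0.825 and 5.63 FPKM in WT IL-33 and to 40.2, 3.39 and 0 FPKM in 6DKO IL-33. The next highest sum after 6DKO PBS 2 was in 6DKO IL-33 1, which was also next for *Fasl*, and *Gzma* was the most abundant marker in both. The order did not match further down. WT PBS 1, with a sum of 19.5 FPKM, had *Fasl* listed at 0, and WT IL-33 3, with 5.63 FPKM, had 4.75 FPKM of *Fasl*. Of the 7 markers *Eomes*, *Ncr1* and *Klrb1c* were at 0 in all other PBS libraries, while *Prf1*, *Gzma*, *Klra8* and *Tbx21* were each above 0 in some of them. The antibodies that defined lineage-positive cells in the sort included NK1.1, a marker of NK cells. The part of transcripts of such cells in the *Fasl* level was not tested. Library 6DKO PBS 2 also held 112 FPKM of *Lyz2* and 39.7 FPKM of *Ear2*, each the highest of the 12. The change of *Fasl* with IL-33 was −0.49 in 6DKO (SE 1.35, adjusted p = 0.910) and 1.37 without this library, and in WT it was 1.07 (SE 1.35, adjusted p = 0.751).

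Over the 12 lists of markers of other cells, 4 genes were called higher and 2 lower averaged over the genotypes, of 83, shares no larger than the 5.89% and 3.15% of all genes. Among 8 dendritic cell markers 1 was called, *H2-Aa*, the one with the highest mean, which rose in WT and averaged (log2 fold change 4.02, SE 0.83, adjusted p = 0.0118). *Clec9a* was at 0 in all 12 libraries. The 8 markers summed to 1.84, 0.252 and 39.6 FPKM in WT PBS, to 102, 30.7 and 44.2 FPKM in 6DKO PBS, to 75.7, 93.0 and 245 FPKM in WT IL-33 and to 308, 296 and 340 FPKM in 6DKO IL-33. Among 6 B cell markers 1 was called, *Cd79b*, the one with the highest mean. It rose in WT (log2 fold change 4.08) and averaged (2.94, SE 0.63, adjusted p = 0.0144), while *Ms4a1* and *Pax5* were at 0 in all 12 libraries. The 6 summed to 0.0345, 0.139 and 5.05 FPKM in WT PBS, to 0, 0 and 8.90 FPKM in 6DKO PBS, to 26.9, 14.5 and 11.97 FPKM in WT IL-33 and to 3.49, 18.4 and 5.91 FPKM in 6DKO IL-33. The 12 macrophage and monocyte markers summed to 0.390, 1.20 and 17.1 FPKM in WT PBS, to 5.74, 183 and 10.6 FPKM in 6DKO PBS, to 6.55, 5.63 and 0.815 FPKM in WT IL-33 and to 13.2, 428 and 147 FPKM in 6DKO IL-33. *Chil3*, the one with the highest mean over the libraries, was at 394 FPKM in 6DKO IL-33 2, 83.1 FPKM in 6DKO IL-33 3 and 51.1 FPKM in 6DKO PBS 2, and at most 5.13 FPKM in the other 9 libraries. Of these 12 markers 1, *Cd68*, rose averaged, as did 1 of 6 ILC3 markers (*Il17a*), while 1 of 6 mast cell and basophil markers (*Cpa3*) fell. Group means of *Cd68* under PBS and IL-33 were 0.152 and 0.385 FPKM in WT, and 0.0800 and 3.71 FPKM in 6DKO. In the macrophage and monocyte list, 0 markers were called in WT and 1 was called higher in 6DKO. Of 6 epithelial markers *Epcam* fell, whereas 4 of the 6 had positive averaged values, none of them called. Averaged over the genotypes, no marker was called in the lists of T cells, NK cells and ILC1s, neutrophils, eosinophils, endothelium or mesenchyme, for which limma gave 0, 0, 0, 1, 0 and 0 at an unadjusted p under 0.05. For the lists of dendritic cells, B cells, macrophages, ILC3s, mast cells and epithelium these counts were 3, 1, 1, 3, 2 and 2. Together 13 of the 83 markers were under this level, as were 2609 of the 11448 genes tested. The part of such cells in the ligand calls was not tested. Among the ILC2 markers, *Klrg1* rose and *Il2ra*, *Il5*, *Areg* and *Icos* fell averaged over the genotypes.

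Other genes of the pathway were read from 4 further lists. Of 8 other ligand genes of the family, 2 rose averaged over the genotypes and 0 fell, with 5.89% of all genes called higher and 3.15% lower. *Cd70*, whose product binds CD27 on lymphocytes, lies next to *Tnfsf14* on chromosome 17, 39715 bases away. It was listed at 0 in all 6 PBS libraries, at 9.84, 62.0 and 41.6 FPKM in WT IL-33 and at 42.4, 18.5 and 15.7 FPKM in 6DKO IL-33. All 6 IL-33 libraries were above all PBS libraries, and *Cd70* rose in WT (adjusted p = 0.00160), in 6DKO (0.00361) and averaged (8.55e-05). *Tnfsf9*, for the ligand of 4-1BB, was at 68.3, 26.9 and 24.004 FPKM in WT PBS, at 69.9, 27.8 and 114 FPKM in 6DKO PBS, at 127, 112 and 131 FPKM in WT IL-33 and at 124, 132 and 145 FPKM in 6DKO IL-33. Within each genotype the treatments did not overlap for *Tnfsf9*, and it rose averaged (log2 fold change 1.44, SE 0.34, adjusted p = 0.0210). The averaged call of *Tnfsf9* ended without any 1 of 4 IL-33 libraries (adjusted p = 0.0507 to 0.0548), in a range of 0.00841 to 0.0548. Its exons overlap those of *Gm11110* on the opposite strand, and the sources differ on the kit, so that the value may include reads of *Gm11110* if the libraries are not stranded. *Cd70*, *Tnfsf9* and *Tnfsf14* are neighbours, of which *Cd70* and *Tnfsf9* rose and *Tnfsf14* was not called. The other 6 ligands of this list stayed under 3 FPKM in all 12 libraries.

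Of the 11 receptors of the 10 ligands, 1 rose and 0 fell averaged over the genotypes, a share close to the 5.89% of all genes called higher and thus no result about receptors as a list. The gene called was *Tnfrsf4*, which encodes OX40, the receptor of the *Tnfsf4* product. *Tnfrsf4* was at 14.7, 0 and 28.1 FPKM in WT PBS, at 0.153, 0 and 1.16 FPKM in 6DKO PBS, at 73.6, 116 and 184 FPKM in WT IL-33 and at 102, 66.3 and 49.8 FPKM in 6DKO IL-33. All 6 IL-33 libraries were above all 6 PBS libraries. The log2 fold change was 4.82 averaged (SE 0.70, adjusted p = 0.00153) and 5.70 in 6DKO (SE 0.99, adjusted p = 0.0117). In WT it was 3.93 (SE 0.99, adjusted p = 0.0505), which was not called, and the interaction was 1.77 (SE 1.41, adjusted p = 0.886). The 6DKO call ended without 6DKO IL-33 1 (adjusted p = 0.0590), in a range of 0.000352 to 0.0590. Thus ligand and receptor of this pair were both above 0 in all 6 IL-33 libraries. For TNF itself, *Tnfrsf1b* (TNFR2) had group means of 45.4 to 110 FPKM and *Tnfrsf1a* (TNFR1) of 0.293 to 3.20 FPKM. The lymphotoxin-beta receptor gene *Ltbr* was listed at 0 in 10 of 12 libraries, CD30 (*Tnfrsf8*) had group means of 0 to 1.78 FPKM, and the decoy receptor *Tnfrsf11b* was at 0 in all 12.

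Of 17 receptor adapters and feedback regulators, 0 rose and 2 fell, in WT, with 1.63% of all genes called lower, and averaged, with 3.15%. Of 5 genes for shedding of ligands 0 were called, with 0 at an unadjusted p under 0.05 in the contrasts of treatment. The 2 that fell encode inhibitors of NF-kB signalling which NF-kB itself induces. *Nfkbia*, for IkB-alpha, was at 7244, 5218 and 4607 FPKM in WT PBS, at 5206, 2541 and 3577 FPKM in 6DKO PBS, at 2704, 2604 and 2412 FPKM in WT IL-33 and at 2699, 2616 and 2706 FPKM in 6DKO IL-33. The treatments did not overlap in WT and overlapped in 6DKO through 6DKO PBS 2. The change was −1.12 in WT (SE 0.22, adjusted p = 0.0169), −0.44 in 6DKO (SE 0.22, adjusted p = 0.391) and −0.78 averaged (SE 0.16, adjusted p = 0.0109). Without a trend in limma the calls of *Nfkbia* ended in WT (0.0794) and averaged (0.0538), in ranges of 0.00219 to 0.0794 and 0.00205 to 0.0538. The call in WT also ended without WT PBS 1 or any 1 of the 3 WT IL-33 libraries (0.0585 to 0.0760). *Tnfaip3*, for the ubiquitin-editing enzyme A20, was at 1672, 1378 and 1395 FPKM in WT PBS, at 1686, 1193 and 1255 FPKM in 6DKO PBS, at 830, 860 and 767 FPKM in WT IL-33 and at 917, 950 and 1101 FPKM in 6DKO IL-33. For *Tnfaip3* each IL-33 library was below each PBS library. The change was −0.85 in WT (SE 0.14, adjusted p = 0.00710), −0.46 in 6DKO (SE 0.14, adjusted p = 0.128) and −0.66 averaged (SE 0.10, adjusted p = 0.00198). The WT call of *Tnfaip3* ended without a trend (0.0899), in a range of 0.00219 to 0.0899. Neither interaction was called, at 0.68 for *Nfkbia* (SE 0.32, adjusted p = 0.868) and 0.39 for *Tnfaip3* (SE 0.20, adjusted p = 0.886).

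The genes whose pattern over the 12 libraries was most like that of a ligand were sought among 10444 genes by Pearson's r on the log2 scale, as a description. For *Tnf* they were *Anks6* (r = 0.962), *Bambi* (0.958) and *Pole4* (0.957), all lower on average under IL-33. For *Tnfsf8* they were *Fam46a* (0.952), *Ank* (0.952) and *Itgae* (0.936), and *Itgae*, for the integrin CD103, had a mean of 1.94 FPKM in the PBS and 133 FPKM in the IL-33 libraries. For *Tnfsf4* they were *Thoc7* (0.959), *Hist1h4m* (0.945) and *1810058I24Rik* (0.944). For *Lta* they were *Aprt* (0.955), *Iscu* (0.946) and *Gipc1* (0.944), and for *Ltb* *Nubp1* (0.948) and *Eef2* (0.859). For *Tnfsf14* they were *Rpl13* (0.939), *Ppm1a* (0.928) and *Adssl1* (0.894), and for *Tnfsf10* *Tdp1* (0.947), *Sidt1* (0.929) and *Pyhin1* (0.926). For *Tnfsf11* they were *E230016M11Rik* (0.849), *Arfgef1* (0.833) and *Mpv17l2* (0.822), the lowest values among the 9 ligands described in this way. For *Fasl* they were *1810011O10Rik* (0.937), *Zfp874a* (0.936) and *Tmem17* (0.929). With *Fasl* at 46.6 FPKM in 6DKO PBS 2 and at most 7.15 FPKM elsewhere, that library weighs heavily in these values of r. With 12 libraries and treatment groups that stand apart, many genes share such patterns, and nothing is drawn from them on shared control.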

How the data were processed

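RNA of sorted lung ILC2s was sequenced in 12 libraries, and the authors deposited FPKM values for 24346 gene symbols in each. The sources name TopHat2 and Bowtie2 for mapping to mm10 and the Cufflinks tools for FPKM. Paper and labels differ in tool versions, kits and IL-33 dose, and the annotation is not named. Values were analysed as log2(FPKM + 1) with limma 3.58.1 in R 4.3.3 (lmFit on 4 group means, eBayes with trend, 2-sided), on 11448 genes, namely those averaging 0.5 FPKM or more and those of the gene lists; all 10 ligands passed by level. Correlations and summaries used Python 3.11.15 and pandas 2.3.3. Named are all 10 ligands, called genes of 4 pathway lists, and for each ligand averaging 1 FPKM or more up to 3 genes of highest Pearson's r; marker genes and others named for contrast were chosen after their values were seen. The ligands and lists were chosen with earlier results of these data known. Positions are from GENCODE vM21 (GRCm38), sequences from RefSeq. Alternatives were a pseudocount of 0.1, other filters and scalings, no trend, array weights, a replicate block, only the groups compared, and each library left out.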

Additional observations from a re-analysis of the deposited data

How the results depend on the processing

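In 21 alternatives, 1240 estimates for the 10 ligands were recomputed: 1158 kept direction and side of the threshold, 11 lost a call, 16 gained a call and 55 changed sign, 0 of them for a called value. The averaged calls of *Tnf*, *Tnfsf4* and *Tnfsf8* were shared by all 20 alternatives that give an average, with a log2 change of −1.71 to −1.44 for *Tnf* and 2.96 to 3.92 for *Tnfsf8*. That of *Cd40lg* was shared by 18, and lost with quantile normalization and array weights. No ligand was called between the genotypes under IL-33 or in the interaction in any alternative. The cause was not tested for any change given here, except that leaving out a library or fitting only 2 groups leaves fewer samples.

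With quantile normalization the median log2 change of all genes with IL-33 moved by −0.20 in WT, −0.16 in 6DKO and −0.19 averaged, to −0.045, −0.020 and −0.029, and the share of calls that were higher went from 62.2% to 51.6%, from 61.6% to 50.0% and from 65.1% to 50.5%. *Tnf* was still called lower and *Tnfsf4* and *Tnfsf8* still higher averaged. *Fasl* turned to −0.16 averaged, *Tnf* to 0.00097 between genotypes under IL-33, *Ltb* to 0.031 between genotypes under PBS, and the interactions of *Tnfsf8* and *Tnfsf11* to 0.22 and 0.019. In 6DKO 2 ligands were called (with *Tnfsf8*), and 0 and 36 genes between genotypes under IL-33 and PBS. With a pseudocount of 0.1 the median moved by 0.13 in WT and 6DKO and 0.19 averaged, *Fasl* turned to 0.31 in 6DKO, *Cd40lg* was called in both genotypes (2 ligands in 6DKO), and 2 genes were called between genotypes under IL-33 and 5 in the interaction. With no filter 33 genes were called between genotypes under PBS, and with no trend 7 in the interaction.

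With array weights 214 genes were called in 6DKO, 59 and 1 between genotypes under IL-33 and PBS, and 1 in the interaction, and *Tnfsf8* was called in WT. With the replicate block these were 228 in 6DKO with 2 ligands, 15 between genotypes under PBS and 1 in the interaction, and *Tnfsf8* was called in WT (adjusted p = 0.0309) and 6DKO (0.0441). Same-numbered libraries were no more alike than others (r of deviations −0.047 to 0.045, against −0.073 to 0.053 for other pairs), so the numbers were not treated as pairs. With only the groups compared, 1 ligand was called in WT (*Tnfsf4*), and 0 and 1 genes between genotypes under IL-33 and PBS.

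Without 1 library, its group of 2 shares the spread of all groups. A contrast that does not use the library keeps its estimate, and only its spread and p-values can move. Genes called were 224 to 706 in WT (main value 495; 224, 266 and 238 without WT IL-33 1, 2 and 3), 156 to 508 in 6DKO (346; 159, 156 and 163 without 6DKO IL-33 1, 2 and 3), 0 to 4 between genotypes under IL-33 (1), 20 to 206 under PBS (70) and 0 to 30 in the interaction (3). Under PBS the count was 206 without WT PBS 3, 173, 151 and 146 without 6DKO PBS 1, 2 and 3, 23, 27 and 31 without WT IL-33 1, 2 and 3, and 20, 25 and 28 without 6DKO IL-33 1, 2 and 3. In the interaction it was 8, 6 and 25 without WT PBS 1, 2 and 3, 30, 7 and 9 without 6DKO PBS 1, 2 and 3, 0, 0 and 1 without WT IL-33 1, 2 and 3, and 0 without 6DKO IL-33 1. Between genotypes under IL-33 it was 4 without 6DKO PBS 1, 0 and 2 without WT IL-33 2 and 3, and 0, 3 and 2 without 6DKO IL-33 1, 2 and 3.

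Ligands called were 0 to 3 in WT (2), 0 to 2 in 6DKO (1) and 0 to 1 between genotypes under PBS (0). In WT, *Tnf* was lost without WT IL-33 1, 2 or 3 (adjusted p = 0.0505, 0.0535 and 0.0504) and *Tnfsf4* without WT IL-33 2 or 3 (0.0707 and 0.0779). In 6DKO, *Tnf* was lost without 6DKO IL-33 1, 2 or 3 (0.0660, 0.0775 and 0.0539). *Tnfsf8* was gained in WT without WT PBS 3 (0.0281) or 6DKO PBS 3 (0.0371) and in 6DKO without WT PBS 1 (0.0202) or 6DKO PBS 3 (0.0337). *Cd40lg* was gained in WT without WT IL-33 2 (0.0342), *Tnfsf14* in WT, 6DKO and averaged without 6DKO PBS 2 (0.0427, 0.0245 and 0.00322), and *Tnfsf4* between genotypes under PBS without 6DKO PBS 3 (0.0150).

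Signs changed within these leave-one-out ranges of log2 changes. In 6DKO they were −0.021 to 0.29 for *Lta*, −0.24 to 0.085 for *Ltb* and −1.41 to 1.37 for *Fasl*, and averaged −0.035 to 0.13 for *Ltb* and −0.17 to 1.22 for *Fasl*. Between genotypes under IL-33 they were −0.090 to 0.078 for *Tnf*, −0.64 to 0.094 for *Tnfsf4*, −0.26 to 0.50 for *Tnfsf8*, −0.23 to 0.073 for *Tnfsf10*, −0.63 to 0.89 for *Fasl* and −0.705 to 0.075 for *Cd40lg*. Under PBS they were −0.36 to 0.20 for *Tnf*, −0.17 to 0.15 for *Ltb*, −0.86 to 0.997 for *Tnfsf8* and −0.11 to 2.68 for *Fasl*. In the interaction they were −0.21 to 0.35 for *Tnf*, −0.80 to 1.06 for *Tnfsf8*, −0.072 to 0.98 for *Tnfsf10*, −0.21 to 0.22 for *Tnfsf11*, −0.29 to 0.52 for *Tnfsf14*, −2.48 to 0.31 for *Fasl* and −0.705 to 0.075 for *Cd40lg*.

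Of the other pathway genes, *Cd70* was called in all alternatives, in WT, in 6DKO and averaged. *Tnfsf9* averaged was lost without WT IL-33 1 or 3 or 6DKO IL-33 2 or 3 (adjusted p = 0.0520, 0.0548, 0.0507 and 0.0548). *Nfkbia* was lost with no trend in WT (0.0794) and averaged (0.0538), and in WT without WT PBS 1 (0.0598) or WT IL-33 1, 2 or 3 (0.0585, 0.0630 and 0.0760). *Tnfaip3* was lost in WT with no trend (0.0899), and *Tnfrsf4* in 6DKO without 6DKO IL-33 1 (0.0590). *Tnfrsf4* was gained in WT with quantile normalization, median ratio scaling and array weights (0.0389, 0.0488 and 0.0462) and without WT PBS 2 or 3 (0.0274 and 0.0199). *Tnfsf9* was gained in WT with array weights (0.0257) and without WT PBS 1, 6DKO PBS 2 or 6DKO PBS 3 (0.0287, 0.0203 and 0.0393).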
